A study of Homo sapiens with 6 samples.

Results

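Interleukin 6 family cytokines, colony-stimulating factors and the receptors, transducer and inhibitor they act through were examined in CFPAC-1 cells with SULF2 knocked down. The members are the 10 rows of the deposited transcript table whose gene name is IL6, LIF, IL11, IL1A, CSF1, CSF2, IL6ST, LIFR, STAT3 or SOCS3, out of 59962 genes. CFPAC-1 is an established epithelial line derived from a human pancreatic ductal adenocarcinoma. RNA-seq gave 6 bulk libraries in 3 groups, all of this line with no other treatment given in the labels: SULF2 knockdown with guide sgRNA3 (2 libraries), SULF2 knockdown with guide sgRNA1 (2 libraries) and the LACZ knockdown control, aimed at a bacterial gene (2 libraries). SULF2 encodes a secreted enzyme that strips sulfate groups from heparan sulfate chains outside the cell. The labels do not say whether a group's libraries came from separate cultures or clones, so p-values measure the spread between these libraries, which may be technical.

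Cytokines of the interleukin 6 family bind their own receptor chains and then share gp130, the product of IL6ST, which passes the signal to JAK kinases and the transcription factor STAT3. STAT3 in turn switches on SOCS3, an inhibitor that shuts the receptor complex down. IL6 and LIF are known to be made in pancreatic tumours, by cancer cells or the stroma around them, and colony-stimulating factors recruit and shape myeloid cells. IL1A is an alarm cytokine of a separate family that is known to induce IL6 and LIF through NF-kB.

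The 4 promoters below belong to cytokine genes that were lower with both guides and that hold one of the motifs searched. They are the 250 bases before the RefSeq start in GRCh38.p14, written 5′ to 3′ on the gene's strand, and the capitals mark the motif match. Windows for 8 of the 10 members were in the table, which did not list LIF and CSF1.
IL6: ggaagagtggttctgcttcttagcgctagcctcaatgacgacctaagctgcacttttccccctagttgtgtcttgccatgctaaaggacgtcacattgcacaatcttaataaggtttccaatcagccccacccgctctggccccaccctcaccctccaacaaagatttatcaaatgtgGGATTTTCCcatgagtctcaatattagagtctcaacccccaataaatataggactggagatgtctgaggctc
IL11: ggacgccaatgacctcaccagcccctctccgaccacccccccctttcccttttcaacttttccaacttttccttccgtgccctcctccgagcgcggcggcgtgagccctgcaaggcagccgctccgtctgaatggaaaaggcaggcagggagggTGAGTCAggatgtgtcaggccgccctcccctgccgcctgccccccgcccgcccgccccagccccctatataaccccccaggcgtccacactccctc
IL1A: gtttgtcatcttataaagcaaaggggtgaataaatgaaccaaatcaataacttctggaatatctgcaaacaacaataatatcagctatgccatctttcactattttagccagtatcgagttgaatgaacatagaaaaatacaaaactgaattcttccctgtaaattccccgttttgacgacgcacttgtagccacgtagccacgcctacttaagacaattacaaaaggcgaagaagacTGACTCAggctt
CSF2: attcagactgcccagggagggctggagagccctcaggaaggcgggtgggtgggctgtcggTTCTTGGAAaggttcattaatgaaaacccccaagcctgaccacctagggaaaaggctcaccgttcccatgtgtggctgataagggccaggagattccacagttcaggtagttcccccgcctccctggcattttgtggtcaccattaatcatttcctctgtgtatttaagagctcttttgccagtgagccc
The IL6 window is chr7:22726950-22727199 on the plus strand, and its capitals are an NF-kB core match (GGANTTNCC) that runs 72 to 64 bases before the start. The IL11 window is chr19:55370464-55370713 on the minus strand, with an AP-1 match (TGANTCA) 96 to 90 bases before the start. The IL1A window is chr2:112784494-112784743 on the minus strand, taken at the more upstream of 2 listed starts, with an AP-1 match 12 to 6 bases before it. The CSF2 window is chr5:132073539-132073788 on the plus strand, with a STAT match (TTCNNNGAA) 190 to 182 bases before the start. Both strands were searched for 5 motifs, which can overlap one another. Of 35093 RefSeq windows of the same length, 3.67% held the NF-kB core, 6.57% AP-1, 6.57% STAT, 1.65% the CRE motif TGACGTCA and 3.15% the C/EBP-ATF motif TGATGNAA. Among the 8 members with a window, 1 held the NF-kB core, 2 held AP-1, 2 held STAT (CSF2 and LIFR) and none held CRE or C/EBP-ATF. The windows of IL6ST, STAT3 and SOCS3 held none of the 5. The SOCS3 window was chr17:78360926-78361175 on the minus strand, and 2 starts were listed for that gene. It lay upstream of the SOCS3 gene position given below without touching it, so the bases next to that position were not searched. LIFR had 3 listed starts, and 1 window was searched. These are letter matches only, and binding was not measured.

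All 10 members were detected, and all 10 passed the filter on low values that left 16610 genes for testing. In the LACZ libraries IL6 was the most abundant of them, at 210 ± 1.2 TPM (SD, n = 2), above 96.0% of the tested genes, and LIF followed at 156 ± 0.785 TPM, above 94.5%. TPM is corrected for library total and gene length, so levels can be ranked between genes. CSF2, STAT3, SOCS3, IL6ST, CSF1, IL11, IL1A and LIFR followed in that order, and SOCS3 and IL6ST were the only neighbours in it whose LACZ libraries overlapped. LIFR was the lowest, above 35.9% of tested genes. The order was different with the guides. With sgRNA3, IL6 still led, STAT3 was next, and CSF2, LIF and IL6ST came after it with overlapping libraries. With sgRNA1, STAT3 led, LIF was next, and IL6, IL6ST and CSF2 followed, with the libraries of IL6ST overlapping those of IL6 and of CSF2, which did not overlap each other. No test was made between genes.

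**Figure D1:**
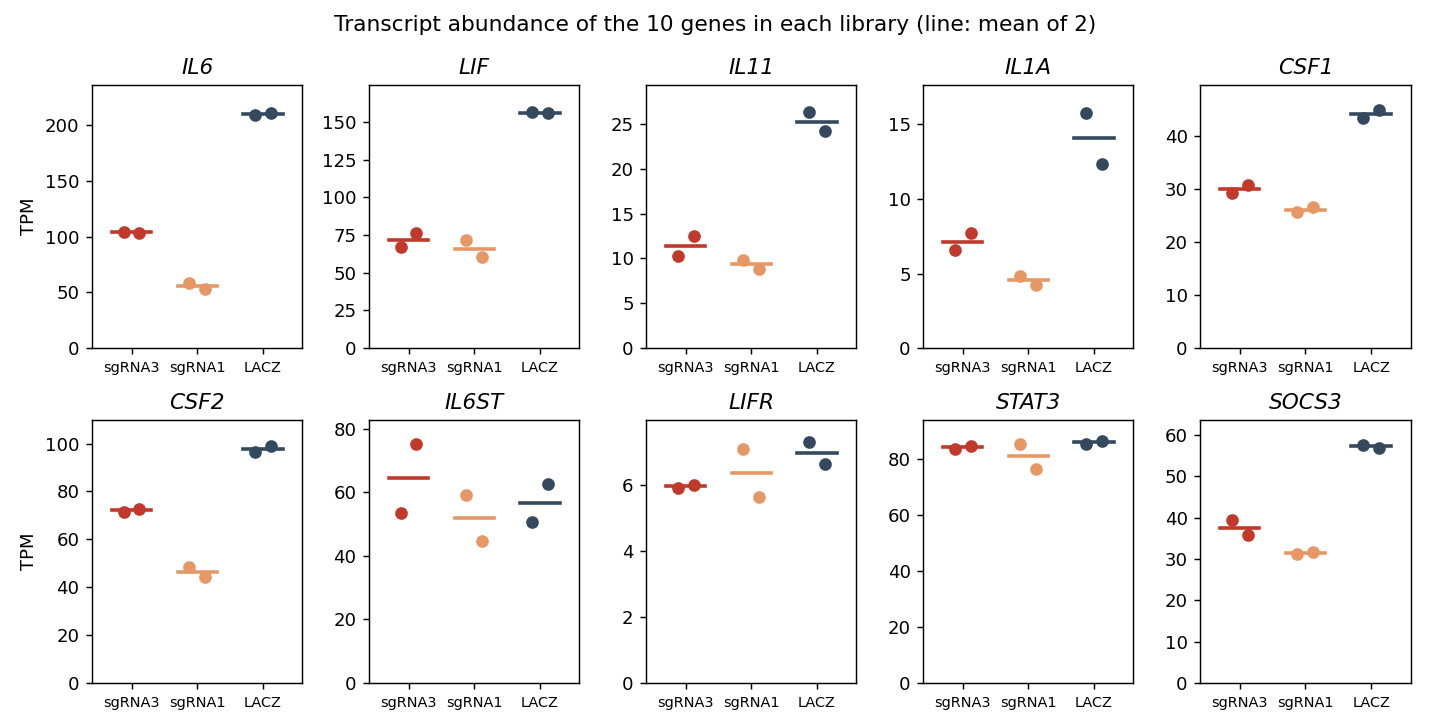
TPM (vertical axis, from 0, a separate scale in each panel) of the 10 genes in each of the 6 libraries, by group; points are libraries and lines are means of 2. The 6 cytokine genes and SOCS3 are lower in every library of sgRNA3 and sgRNA1 than in LACZ, and IL6ST is not.

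The target itself was checked first. SULF2 had 10.1 and 9.24 TPM with sgRNA3 and 8.98 and 12.8 TPM with sgRNA1, against 25.7 and 22.5 TPM in LACZ. Every guide library was below both LACZ libraries, and about 40.1% and 45.2% of the LACZ mean remained with sgRNA3 and with sgRNA1. The log2 change was -1.23 (SE 0.18, adjusted p = 0.0215) with sgRNA3 and -1.09 (SE 0.18, adjusted p = 0.0338) with sgRNA1. SULF2 overlaps NCOA3 on the other strand, which had 14.5 to 20.1 TPM. All adjusted p values here are from limma on log2(TPM + 1) adjusted over every tested gene by Benjamini-Hochberg, and 0.05 is the threshold. The sgRNA3 call for SULF2 was lost without sgRNA3 replicate 1 (adjusted p = 0.0853), sgRNA3 replicate 2 (0.0973), LACZ replicate 1 (0.106) or LACZ replicate 2 (0.0888). With sgRNA1 it was lost without LACZ replicate 1 (0.159), LACZ replicate 2 (0.119), sgRNA1 replicate 1 (0.0737), sgRNA3 replicate 1 (0.0696) or sgRNA3 replicate 2 (0.0695). With all libraries kept, the sgRNA3 call was lost with no filter on low values (0.0528), no variance trend (0.0511) or the replicate block (0.0583). The sgRNA1 call was lost with no filter (0.0768), quantile normalization (0.0530), no variance trend (0.0675), the replicate block (0.0819) or only the 2 groups compared (0.0672). The SULF2 call thus held in 8 of 15 alternative analyses with sgRNA3 and in 5 of 15 with sgRNA1.

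Among the members, 7 of 10 were lower and 0 higher with sgRNA3, where 5.25% of all tested genes were called lower and 3.84% higher. With sgRNA1 7 of 10 were lower and 0 higher, against 4.31% of all tested genes called lower and 1.69% higher. The members were chosen with earlier results of these data known, so these counts are not an independent test against those shares. The split over all genes moved with the scaling: sgRNA3 had 637 genes higher and 872 lower, but 1020 and 806 under median-of-ratios scaling, and sgRNA1 had 281 and 716, but 610 and 578 after that scaling, or 442 and 560 after quantile normalization. The members' counts were 0 higher and 7 lower under each. The 7 were the same with each guide, namely all 6 cytokines (IL6, LIF, IL11, IL1A, CSF1 and CSF2) and SOCS3, and 2.9% of tested genes were lower with both. The comparisons share the LACZ libraries. No member was called higher against LACZ by limma, nor at an unadjusted p under 0.05. The median log2 change of the 10 was -0.57 with sgRNA3 and -0.96 with sgRNA1, beside -0.05 and -0.07 over all tested genes. Libraries did not overlap, with the guide lower, for 9 members with sgRNA3 (34.3% of all tested genes) and for 7 with sgRNA1 (35.2%). In bulk RNA, fewer cells making a transcript and less transcript per cell cannot be told apart.

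**Figure D2:**
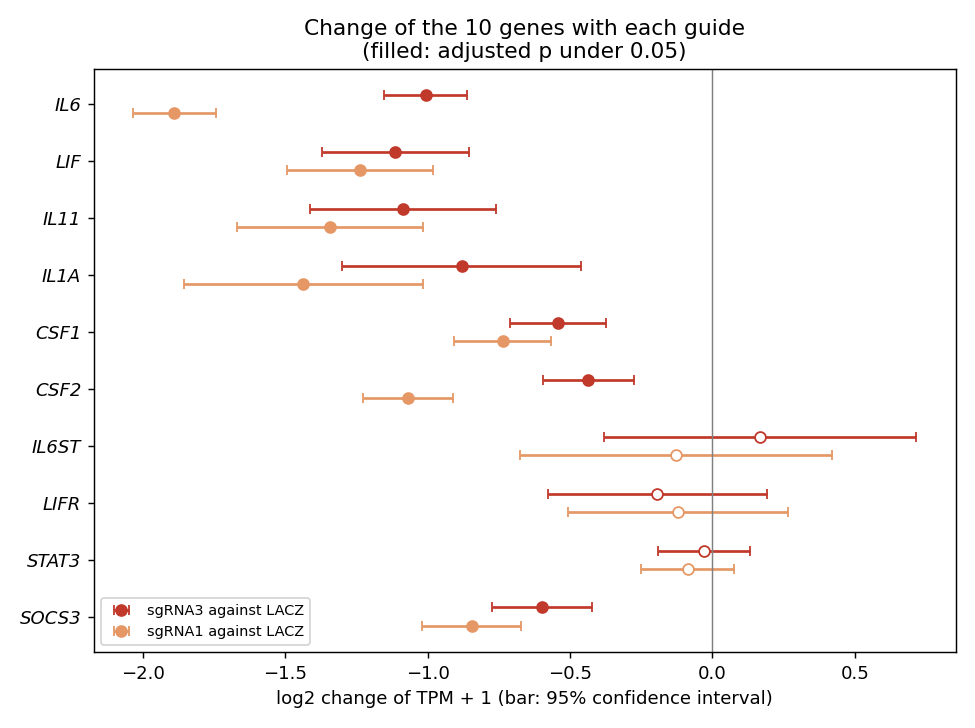
Log2 change of TPM + 1 against LACZ (horizontal axis) for the 10 genes with sgRNA3 (upper, red) and sgRNA1 (lower, orange); bars are 95% confidence intervals and filled points passed the adjusted threshold of 0.05. The 6 cytokines and SOCS3 lie left of 0 with both guides, and the intervals of IL6ST, LIFR and STAT3 cross 0.

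IL6 encodes the founding cytokine of the family. The gene (ENSG00000136244) lies at chromosome 7, 22725884 to 22732002, in GRCh38. Its level was 104 and 103 TPM with sgRNA3 and 58.6 and 53.4 TPM with sgRNA1, against 209 and 211 TPM in LACZ. The 3 groups were separate, with LACZ highest and sgRNA1 lowest, and the guides kept 49.5% (sgRNA3) and 26.7% (sgRNA1) of the LACZ mean. IL6 fell with sgRNA3 (log2 change -1.01, SE 0.06, adjusted p = 0.00215) and with sgRNA1 (log2 change -1.89, SE 0.06, adjusted p = 0.000379). Both calls held in all 15 alternative analyses, with adjusted p between 0.00123 and 0.0309 for sgRNA3 and between 0.000195 and 0.0129 for sgRNA1. The gene overlaps STEAP1B and the antisense gene AC073072.1 on the other strand. STEAP1B had 3.05 to 4.94 TPM and AC073072.1 0.33 to 0.79 TPM over the 6 libraries. The sources used here do not give strandedness, so reads of such partners cannot be told apart.

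LIF, the leukemia inhibitory factor, signals through LIFR and gp130. The gene (ENSG00000128342) lies at chromosome 22, 30240447 to 30246851. It had 67.1 and 76.5 TPM with sgRNA3 and 71.4 and 60.4 TPM with sgRNA1, against 157 and 156 TPM in LACZ. Libraries of the guides overlapped each other, and all 4 were below LACZ, at 46.0% of its mean for sgRNA3 and 42.2% for sgRNA1. LIF fell with sgRNA3 (log2 change -1.11, SE 0.10, adjusted p = 0.00755) and with sgRNA1 (log2 change -1.24, SE 0.10, adjusted p = 0.00564). The sgRNA3 call was lost without LACZ replicate 1 (adjusted p = 0.0556) or LACZ replicate 2 (0.0560), and the sgRNA1 call without LACZ replicate 1 (0.0572). LIF overlaps the antisense genes LIF-AS1, at 0 to 0.47 TPM, and AC004264.1, at 2.95 to 10.99 TPM.

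IL11 encodes another gp130 cytokine, with a receptor chain of its own. The gene (ENSG00000095752) lies at chromosome 19, 55364389 to 55370463. It had 10.3 and 12.6 TPM with sgRNA3 and 9.87 and 8.87 TPM with sgRNA1, against 26.3 and 24.2 TPM in LACZ. All 4 guide libraries were below LACZ, and those of sgRNA3 were slightly above those of sgRNA1 without overlap. IL11 fell with sgRNA3 (log2 change -1.09, SE 0.13, adjusted p = 0.0133) and with sgRNA1 (log2 change -1.34, SE 0.13, adjusted p = 0.00882). The sgRNA3 call was lost without sgRNA3 replicate 1 (adjusted p = 0.0626), LACZ replicate 1 (0.0821) or LACZ replicate 2 (0.0722). The sgRNA1 call was lost without sgRNA1 replicate 2 (0.0655), LACZ replicate 1 (0.0736) or LACZ replicate 2 (0.0571).

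IL1A encodes interleukin 1 alpha, which acts upstream of many inflammatory genes. The gene (ENSG00000115008) lies at chromosome 2, 112773915 to 112784590. It had 6.57 and 7.72 TPM with sgRNA3 and 4.81 and 4.26 TPM with sgRNA1, against 15.8 and 12.4 TPM in LACZ. The 3 groups were separate, and the LACZ libraries were further apart than those of either guide. IL1A fell with sgRNA3 (log2 change -0.88, SE 0.17, adjusted p = 0.0390) and with sgRNA1 (log2 change -1.44, SE 0.17, adjusted p = 0.0150). At these levels the log2(TPM + 1) scale understates the change. The sgRNA3 call held in only 5 of 15 alternative analyses. Leaving out any 1 library ended it, at an adjusted p of 0.151 without sgRNA3 replicate 1, 0.109 without sgRNA3 replicate 2, 0.0673 without sgRNA1 replicate 1, 0.0666 without sgRNA1 replicate 2, 0.148 without LACZ replicate 1 and 0.0888 without LACZ replicate 2. The sgRNA1 call was lost without sgRNA1 replicate 1 (0.0628), sgRNA1 replicate 2 (0.0852), LACZ replicate 1 (0.0848) or LACZ replicate 2 (0.05003).

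CSF1, the macrophage colony-stimulating factor, keeps macrophages alive through its receptor CSF1R. The gene (ENSG00000184371) lies at chromosome 1, 109910242 to 109930992. It had 29.3 and 30.7 TPM with sgRNA3 and 25.6 and 26.6 TPM with sgRNA1, against 43.3 and 45.0 TPM in LACZ. The groups did not overlap, and replicates were within 0.07 of each other on the log2 scale. CSF1 fell with sgRNA3 (log2 change -0.54, SE 0.07, adjusted p = 0.0148) and with sgRNA1 (log2 change -0.74, SE 0.07, adjusted p = 0.00806). The sgRNA3 call was lost without sgRNA3 replicate 1 (adjusted p = 0.0850), sgRNA3 replicate 2 (0.0719), LACZ replicate 1 (0.0769) or LACZ replicate 2 (0.0888). The sgRNA1 call was lost without LACZ replicate 1 (0.0616) or LACZ replicate 2 (0.0621).

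CSF2 encodes the granulocyte-macrophage colony-stimulating factor, known as GM-CSF. The gene (ENSG00000164400) lies at chromosome 5, 132073790 to 132076170. It had 71.4 and 72.8 TPM with sgRNA3 and 48.3 and 44.1 TPM with sgRNA1, against 96.6 and 99.1 TPM in LACZ. The groups stood in 3 separate steps, at 73.7% of the LACZ mean with sgRNA3 and 47.2% with sgRNA1. CSF2 fell with sgRNA3 (log2 change -0.44, SE 0.06, adjusted p = 0.0212) and with sgRNA1 (log2 change -1.07, SE 0.06, adjusted p = 0.00207). The sgRNA1 call held in all 15 alternatives. The sgRNA3 call was lost without sgRNA3 replicate 1 (adjusted p = 0.107), sgRNA3 replicate 2 (0.0934), LACZ replicate 1 (0.0930) or LACZ replicate 2 (0.109). It was also lost with no variance trend (0.0650) and under the replicate block (0.0579), and held in 9 of 15 alternatives.

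Summed over the 6 cytokines, the libraries held 289 and 304 TPM with sgRNA3 and 219 and 197 TPM with sgRNA1, against 548 and 547 TPM in LACZ. The make-up of that sum was not the same in each group. IL6 gave 36.1% and 34.0% of it with sgRNA3 and 26.8% and 27.02% with sgRNA1, against 38.1% and 38.5% in LACZ. CSF2 gave 24.7% and 24.0% with sgRNA3 and 22.1% and 22.3% with sgRNA1, against 17.6% and 18.1% in LACZ. LIF gave 23.2% and 25.2% with sgRNA3 and 32.7% and 30.6% with sgRNA1, against 28.6% and 28.5% in LACZ. With sgRNA1 there was thus less IL6 than LIF, at a TPM ratio of 0.82 and 0.88, while the ratio was 1.56 and 1.35 with sgRNA3 and 1.33 and 1.35 in LACZ. These shares are a description with no test.

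IL6ST encodes gp130, the signal-passing chain that the family shares. The gene (ENSG00000134352) lies at chromosome 5, 55935095 to 55994993. It had 53.5 and 75.2 TPM with sgRNA3 and 59.1 and 44.8 TPM with sgRNA1, against 50.7 and 62.7 TPM in LACZ. All 3 groups overlapped. The replicates of a group differed by 0.48 (sgRNA3), 0.39 (sgRNA1) and 0.30 (LACZ) on the log2 scale, beside 0.13, 0.15 and 0.14 for the median tested gene. IL6ST was not called with sgRNA3 (log2 change 0.17, 95% interval -0.38 to 0.72, adjusted p = 0.661) or with sgRNA1 (log2 change -0.13, interval -0.68 to 0.42, adjusted p = 0.764), and its sign turned when some libraries were left out, to -0.07 with sgRNA3 without sgRNA3 replicate 2, and with sgRNA1 to 0.07 without sgRNA1 replicate 2 and 0.02 without LACZ replicate 2. These intervals hold both a rise and a fall.

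LIFR encodes the receptor chain for LIF. The gene (ENSG00000113594) lies at chromosome 5, 38474963 to 38608354. It had 5.90 and 6.01 TPM with sgRNA3 and 7.09 and 5.62 TPM with sgRNA1, against 7.30 and 6.63 TPM in LACZ. Both sgRNA3 libraries were below LACZ, and those of sgRNA1 overlapped it. The change was not called with sgRNA3 (log2 change -0.19, 95% interval -0.58 to 0.19, adjusted p = 0.463) or with sgRNA1 (log2 change -0.12, interval -0.51 to 0.26, adjusted p = 0.675), and the sgRNA1 sign turned to 0.02 without sgRNA1 replicate 2 and to 0.02 with quantile normalization. Transcripts of gp130 outnumbered those of LIFR 9.07 and 12.5 to 1 with sgRNA3 and 8.33 and 7.97 to 1 with sgRNA1, against 6.94 and 9.45 to 1 in LACZ.

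STAT3 is the transcription factor that the pathway activates by phosphorylation, which RNA does not show. The gene (ENSG00000168610) lies at chromosome 17, 42313324 to 42388568. It had 83.5 and 84.6 TPM with sgRNA3 and 85.1 and 76.5 TPM with sgRNA1, against 85.1 and 86.5 TPM in LACZ. The libraries of sgRNA3 were just below those of LACZ, and sgRNA1 replicate 2 was the lowest of the 6. STAT3 was not called with sgRNA3 (log2 change -0.03, 95% interval -0.19 to 0.13, adjusted p = 0.806) or with sgRNA1 (log2 change -0.09, interval -0.25 to 0.08, adjusted p = 0.466), and the sgRNA3 sign turned to 0.02 with median-of-ratios scaling. Both intervals leave out a change as large as that of any called member.

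SOCS3, the feedback inhibitor that binds gp130 and JAK kinases, lies on the same chromosome at 78356778 to 78360077 (ENSG00000184557). It had 39.3 and 35.7 TPM with sgRNA3 and 31.2 and 31.6 TPM with sgRNA1, against 57.7 and 56.8 TPM in LACZ. The 3 groups were separate, at 65.6% of the LACZ mean with sgRNA3 and 54.9% with sgRNA1. SOCS3 fell with sgRNA3 (log2 change -0.60, SE 0.07, adjusted p = 0.0129) and with sgRNA1 (log2 change -0.85, SE 0.07, adjusted p = 0.00564). The TPM ratio of SOCS3 to STAT3 was 0.47 and 0.42 with sgRNA3 and 0.37 and 0.41 with sgRNA1, against 0.68 and 0.66 in LACZ. The sgRNA3 call was lost without sgRNA3 replicate 2 (adjusted p = 0.0657), LACZ replicate 1 (0.0785) or LACZ replicate 2 (0.0765), and the sgRNA1 call without LACZ replicate 1 (0.0572).

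**Figure D3:**
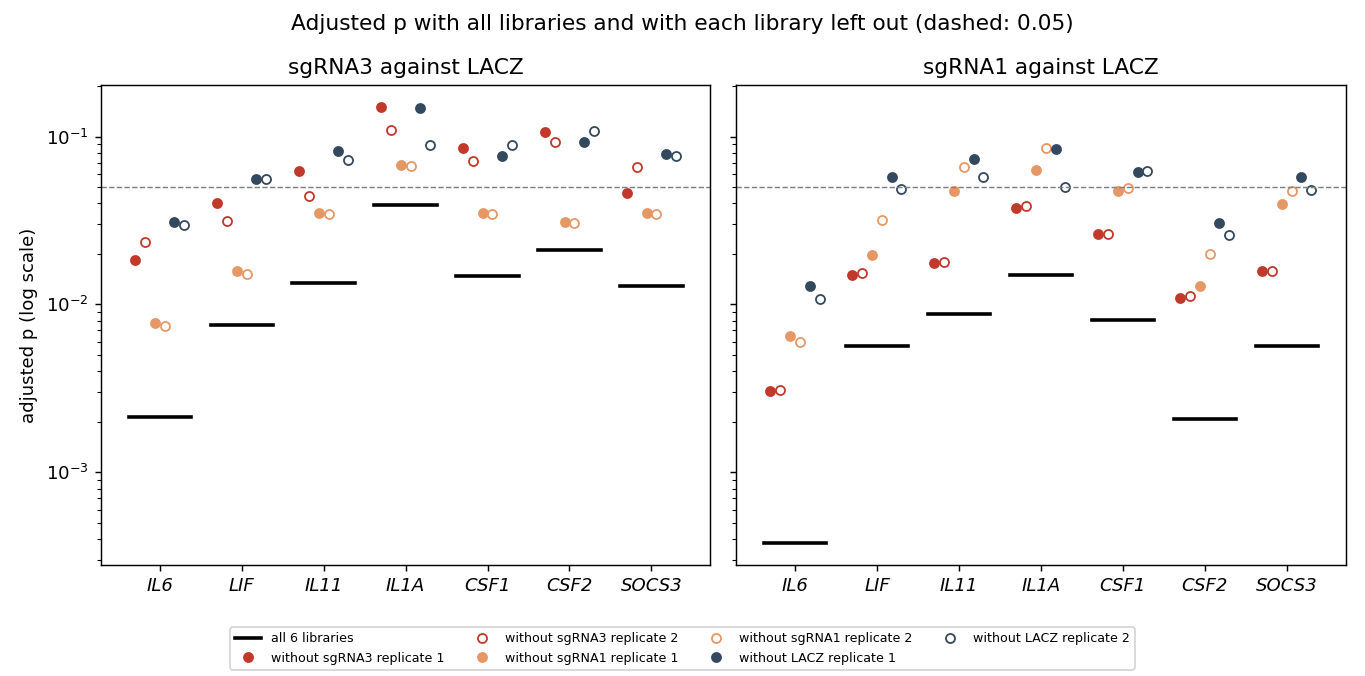
Adjusted p (vertical axis, log scale) of the 7 genes that were lower with each guide, for sgRNA3 (left) and sgRNA1 (right) against LACZ; black lines use all 6 libraries and each point leaves out the library in the legend. All points of IL6 lie under the dashed 0.05 line in both panels, and all sgRNA3 points of IL1A lie above it.

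The counts of 7 depended on single libraries. With sgRNA3 it was 3 without sgRNA3 replicate 1 (IL6, LIF and SOCS3), 3 without sgRNA3 replicate 2 (IL6, LIF and IL11), and 1 without LACZ replicate 1 or without LACZ replicate 2 (IL6 each time). With sgRNA1 it was 2 without LACZ replicate 1 (IL6 and CSF2) and 4 without LACZ replicate 2 (IL6, LIF, CSF2 and SOCS3). A group left with 1 library was assumed to vary like the others. No library turned the sign of any of the 7. An exact two-sided permutation test that set all 4 libraries of both guides against those of LACZ gave p = 0.0667, the smallest its 15 arrangements allow, for IL6, LIF, IL11, IL1A, CSF1, SOCS3 and SULF2. It gave 0.133 for CSF2, 1 for IL6ST, 0.267 for LIFR and 0.4 for STAT3. With 2 libraries against 2 such a test cannot go below 0.333.

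Whether the guides differed from each other was tested directly. IL6 and CSF2 were higher with sgRNA3 than with sgRNA1, 2 of 10 members, where 0.391% of all tested genes were called higher and 0.187% lower (65 and 31 genes, against 57 and 46 after median-of-ratios scaling, or 55 and 44 after quantile normalization). IL6 averaged 104 ± 0.785 TPM with sgRNA3 and 55.95 ± 3.68 TPM with sgRNA1 (SD, n = 2 each), a log2 difference of 0.88 (95% interval 0.74 to 1.03, adjusted p = 0.0174). CSF2 averaged 72.1 ± 1.03 TPM with sgRNA3 and 46.2 ± 3.02 TPM with sgRNA1, a log2 difference of 0.63 (interval 0.47 to 0.79, adjusted p = 0.0350). Neither call survived the loss of any single library, with adjusted p from 0.0542 to 0.0843 for IL6 and from 0.0777 to 0.166 for CSF2, while the differences ranged from 0.82 to 0.95 for IL6 and from 0.57 to 0.70 for CSF2. IL11, IL1A, CSF1 and SOCS3 also had both sgRNA3 libraries above both sgRNA1 libraries. That made 6 of 10 members with IL6 and CSF2, where 28.2% of tested genes had this order. Their differences were not called, at 0.56 for IL1A (interval 0.14 to 0.98, adjusted p = 0.231), 0.26 for IL11 (-0.07 to 0.58, 0.425), 0.25 for SOCS3 (0.07 to 0.42, 0.210) and 0.19 for CSF1 (0.02 to 0.36, 0.275). LIF differed by 0.12 (-0.13 to 0.38, 0.620), IL6ST by 0.30 (-0.25 to 0.85, 0.573), LIFR by -0.07 (-0.46 to 0.31, 0.858) and STAT3 by 0.06 (-0.10 to 0.22, 0.717). The target SULF2 differed by -0.14 (-0.59 to 0.31, adjusted p = 0.754).

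Among the other ligands and receptors of the gp130 family, 10 of 14 listed genes were tested, 1 was lower with each guide and 0 were higher. That gene was OSMR, the oncostatin M receptor, at 99.8 and 100.5 TPM with sgRNA3 and 103 and 99.0 TPM with sgRNA1, against 124 and 120 TPM in LACZ. Its log2 change was -0.28 (adjusted p = 0.0276) with sgRNA3 and -0.27 (adjusted p = 0.0366) with sgRNA1. The median log2 change of the list was 0.17 with sgRNA3 and 0.20 with sgRNA1. CLCF1, a ligand of the ciliary neurotrophic factor receptor, had a log2 change of 0.33 with sgRNA3 (adjusted p = 0.210) and -0.52 with sgRNA1 (adjusted p = 0.105). EBI3, a cytokine subunit, and CNTF, the ciliary neurotrophic factor, stayed under 3 TPM in every library and were not called. IL6R, the chain that binds IL6, had 4.04 and 3.9 TPM with sgRNA3 and 3.0 and 3.71 TPM with sgRNA1, against 2.17 and 3.37 TPM in LACZ, and was not called. IL27, IL31 and CNTFR were listed at 0 in all 6 libraries, and OSM did not exceed 0.11 TPM.

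Of the JAK-STAT transducers and inhibitors other than STAT3 and SOCS3, 20 of 21 were tested. With sgRNA3 limma called 0 of them lower, and 3 were lower at an unadjusted p under 0.05. With sgRNA1 it called 0 of the 20 in either direction, and at an unadjusted p under 0.05 there were 1 higher and 4 lower. Of all 16610 tested genes, 2707 were lower at that unadjusted threshold with sgRNA3. With sgRNA1 it was 1389 higher and 2696 lower. SOCS1, a relative of SOCS3, had 3.63 and 3.78 TPM with sgRNA3 and 5.22 and 5.53 TPM with sgRNA1, against 3.33 and 2.20 TPM in LACZ, and was not called. The kinase JAK1 (0.21 and 0.01) and the phosphatase PTPN11 (0.29 and 0.14) had small log2 changes with sgRNA3 and with sgRNA1 that did not pass. The median of the list was -0.11 with sgRNA3 and -0.13 with sgRNA1.

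**Figure D4:**
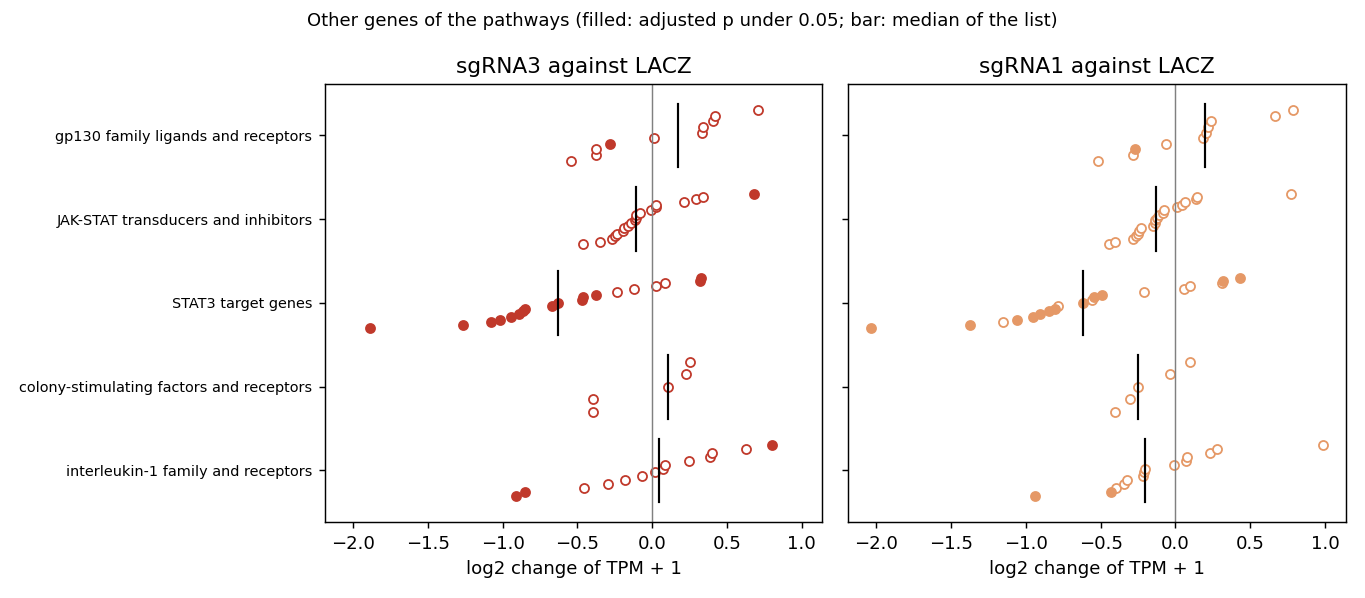
Log2 change of TPM + 1 against LACZ (horizontal axis) of every tested gene in 5 lists of related genes other than the 10, with sgRNA3 (left) and sgRNA1 (right); each point is a gene, filled where the adjusted p was under 0.05, and the bar is the list's median. The list of STAT3 target genes holds most of the filled points, with medians of -0.63 and -0.61.

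Of 20 genes listed as known STAT3 targets, 19 were tested. With sgRNA3 13 were lower and 2 higher, and with sgRNA1 10 were lower and 2 higher, with medians of -0.63 and -0.61. Over all tested genes, 5.25% were called lower and 3.84% higher with sgRNA3, and 4.31% and 1.69% with sgRNA1. Their medians were -0.05 and -0.07. Many of the listed targets answer to other factors too, and the list was drawn up with earlier results of these data known. MYC, a driver of cell growth, had 138 and 129 TPM with sgRNA3 and 107 and 109 TPM with sgRNA1, against 281 and 283 TPM in LACZ. JUNB, a subunit of AP-1, had 11.8 and 12.6 TPM with sgRNA3 and 10.6 and 11.2 TPM with sgRNA1, against 49.3 and 46.5 TPM in LACZ. VEGFA, the vascular growth factor, had 314 and 315 TPM with sgRNA3 and 326 and 287 TPM with sgRNA1, against 625 and 653 TPM in LACZ. CEBPB, a transcription factor of inflammatory genes, had 41.7 and 38.9 TPM with sgRNA3 and 33.4 and 32.9 TPM with sgRNA1, against 64.1 and 61.6 TPM in LACZ. In all 4 the guide libraries were below LACZ, and all 4 fell with both guides, by adjusted p of 0.00985 or lower in limma. These 4 were named for having the smallest p in the list, so their calls add nothing to the counts. The 2 higher genes were the same with each guide: the protease inhibitor TIMP1 (log2 change 0.32 and 0.32 with sgRNA3 and with sgRNA1) and the acute-phase gene SAA1 (0.33 and 0.43). They are outside the rule for named genes and were named after their values were seen.

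Receptors for the colony-stimulating factors were scarce in these cells. Of the 16 listed factors and receptors other than CSF1 and CSF2, 5 were tested, and limma called 0 in each direction with either guide, also at an unadjusted p under 0.05. CSF2RA, the GM-CSF binding chain, had 13.0 and 14.9 TPM with sgRNA3 and 12.5 and 13.0 TPM with sgRNA1, against 10.8 and 12.9 TPM in LACZ. CSF2RB, the chain that signals with it, and CSF3R were listed at 0 in all 6 libraries, and CSF1R did not exceed 0.42 TPM. CSF3, the granulocyte factor, was low at 1.3 to 3.91 TPM. EPOR, FLT3LG and KITLG, a receptor and a pair of ligands of blood cell growth, stayed under 9 TPM and were not called.

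Of 21 interleukin 1 family genes other than IL1A, 14 were tested, with 1 higher and 2 lower with sgRNA3 and 0 higher and 2 lower with sgRNA1. IRAK2, a kinase downstream of the interleukin 1 receptor, fell with sgRNA3 (log2 change -0.85, adjusted p = 0.00715) and with sgRNA1 (-0.94, adjusted p = 0.00564). SIGIRR, a receptor that damps the same pathway, fell with sgRNA3 (-0.91, adjusted p = 0.00510) and with sgRNA1 (-0.43, adjusted p = 0.0368). IL1RL1, the receptor of interleukin 33, had 12.5 and 12.01 TPM with sgRNA3 and 4.42 and 5.18 TPM with sgRNA1, against 7.40 and 5.88 TPM in LACZ, and rose with sgRNA3 (0.80, adjusted p = 0.0406). MYD88, the adaptor of these receptors, was not called (0.40, adjusted p = 0.0783 with sgRNA3; 0.28, adjusted p = 0.187 with sgRNA1). IL1B, the secreted relative of IL1A, had 8.65 and 10.3 TPM with sgRNA3 and 7.26 and 6.52 TPM with sgRNA1, against 9.20 and 8.55 TPM in LACZ, and was not called.

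Each of the 7 called members was matched with the 3 genes whose profile over the 6 libraries lay closest, among 10833 tested genes with a mean of at least 5 TPM. Closeness is the root mean square difference of log2(TPM + 1) centred on each gene's mean. IL6 was closest to TRIB3, a pseudokinase of the stress response, at 0.08, then to the chemokine gene CXCL8 at 0.15 and the amino acid transporter gene SLC7A5 at 0.16, where the median gene lay at 0.76. CSF2 was closest to EREG, which encodes the growth factor epiregulin (0.06), FST (0.08) and THBS1 (0.08). LIF lay closest to MAFF (0.06), IL11 (0.07) and PHLDA1 (0.08), and IL11 to LIF (0.07), PHLDA1 (0.08) and GRPEL2 (0.08). IL1A was closest to SLC7A11 (0.12), CXCL3 (0.14) and CACNG6 (0.14). CSF1 was closest to ZFP36 (0.02), AMIGO2 (0.03) and KLF5 (0.04). SOCS3 was closest to CCN1 (0.03), CEBPB (0.03) and ZNF16 (0.04). LIF and IL11 were the only members found in each other's set. These are descriptions over 6 libraries with no test.

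**Figure D5:**
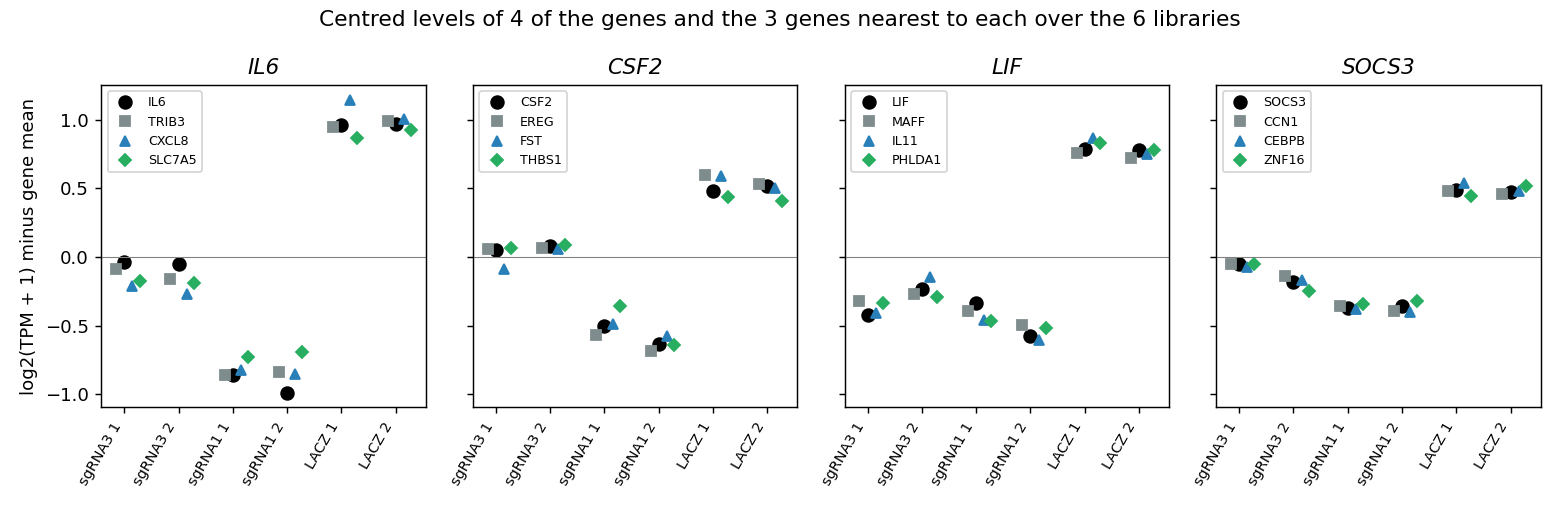
Log2(TPM + 1) minus the gene's mean over 6 libraries (vertical axis) for IL6, CSF2, LIF and SOCS3 (black circles) and the 3 genes nearest to each; the horizontal axis is the library. IL6, CSF2 and SOCS3 and their neighbours show 3 steps, with sgRNA3 between LACZ and sgRNA1, whereas the sgRNA3 and sgRNA1 points of LIF overlap. Neighbours were picked for a close profile, so a shared order follows from that choice.

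The libraries held 15577 and 15580 genes at 1 TPM or more with sgRNA3 and 15705 and 15563 with sgRNA1, against 15923 and 15861 in LACZ, so both LACZ libraries were above all guide libraries. The median-of-ratios size factors were likewise 0.993 and 1.0004 with sgRNA3 and 0.996 and 0.950 with sgRNA1, against 1.03 and 1.03 in LACZ. Mitochondrial transcripts made up 10.3% to 11.2%. Across genes, pairs from the same group had correlations of 0.959 to 0.964, which overlapped those of pairs from different groups, 0.947 to 0.961. Of 8 epithelial and ductal markers 7 were tested, and the 8 summed to 8292 and 8231 TPM with sgRNA3 and 7680 and 7574 TPM with sgRNA1, against 8770 and 8729 TPM in LACZ. KRT18, KRT19 and SOX9 were lower with both guides and CDH1 with sgRNA1, and CFTR did not exceed 0.38 TPM. The other epithelial markers tested, KRT7, KRT8 and EPCAM, were not called with either guide. With sgRNA3, both libraries of KRT8 and of EPCAM were above LACZ, and those of KRT7 overlapped it. With sgRNA1, both libraries of KRT7 and of KRT8 were below LACZ, and those of EPCAM overlapped it. The 8 leukocyte markers summed to 112 and 115 TPM with sgRNA3 and 108 and 102 TPM with sgRNA1, against 96.6 and 103 TPM in LACZ, most of it CD68, and the defining marker PTPRC was at 0.10 TPM or less. CD68 rose with sgRNA3 (log2 change 0.28, adjusted p = 0.0416) and was not called with sgRNA1 (0.09, adjusted p = 0.356). CD14 and LYZ, the other leukocyte markers tested, had both sgRNA3 libraries below LACZ and were not called with either guide. The median log2 change of the 3 tested leukocyte markers was -0.24 with sgRNA3, where 2 were below 0. It was 0.08 with sgRNA1, where 1 was below 0. The 8 fibroblast markers summed to 41.8 and 37.7 TPM with sgRNA3 and 60.8 and 58.6 TPM with sgRNA1, against 78.5 and 77.5 TPM in LACZ. Nearly all of that was COL1A1, at 39.0 and 35.1 TPM with sgRNA3 and 57.4 and 55.5 TPM with sgRNA1, against 74.8 and 74.0 TPM in LACZ. It fell with sgRNA3 (log2 change -0.99, adjusted p = 0.00361) and with sgRNA1 (-0.39, adjusted p = 0.0403). COL1A1 was lowest with sgRNA3. COL1A2 and LUM, the other fibroblast markers tested, were not called with either guide. With sgRNA3, both libraries of COL1A2 were below LACZ and both libraries of LUM were above it. With sgRNA1, the libraries of each overlapped those of LACZ. The part of these markers and library measures in the members' changes was not tested.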

How the data were processed

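RNA-seq was deposited for 6 libraries of CFPAC-1 cells. The deposited matrix holds TPM values, which the authors made with HISAT2 2.1.0, RSEM 1.3.1 and DESeq2 1.24.0 on GRCh38, per the submitters' processing notes, which give neither role nor order; the sources used here give neither annotation nor strandedness. TPM keeps no depth, so no counting interval is given. The guide number linked columns H1 and H3 to samples titled S1 and S3. The sources used here do not say how the guides act. The labels give no batch or date.

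Genes with at least 2 libraries at 1 TPM or more were kept (16610 of 59962). limma 3.58.1 in R 4.3.3 (with the data.table package, version 1.17.8) was fitted to log2(TPM + 1) with the 3 groups in 1 fit and a variance trend (3 residual and 2.34 prior degrees of freedom), giving 3 comparisons with two-sided p-values and Benjamini-Hochberg adjustment over all tested genes. Log2 changes on this scale understate those of low genes. The fit was also run on simulated data in which genes of equal mean level shared the same spread, which these data need not do. Same-numbered replicates did not deviate together (correlations -0.03, 0.01 and -0.02), so replicate number does not enter the fit. The members and gene lists were chosen with earlier results of these data known. Besides the members and SULF2, up to 4 tested genes with the smallest p per list were named, with receptors and ligands at or near 0, and the 3 nearest genes of each called member; IL6R, CSF3, IL1B and the named cell type markers were added for their roles. One gene that the rule would name is not reported here. Motifs were searched in RefSeq windows of 250 bases. Alternatives were pseudocounts of 0.1 and 5, no filter or 5 TPM, median-of-ratios scaling, quantile normalization, no variance trend, a replicate block, only the 2 groups compared, and each library left out. Figures were drawn with matplotlib 3.10.9 in Python 3.11.15.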

Additional observations from a re-analysis of the deposited data

Results flagged for a closer look

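IL6 was higher with sgRNA3 than with sgRNA1 by 0.88 on the log2 scale, so its change against LACZ differed between guides aimed at the same gene (limma, adjusted p = 0.0174; range over the 15 alternatives 0.0127 to 0.122). All of the sgRNA3 libraries were above all of the sgRNA1 libraries.

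CSF2 was higher with sgRNA3 than with sgRNA1 by 0.63 (limma, adjusted p = 0.0350; range over the 15 alternatives 0.0250 to 0.166), again with no overlap between the libraries of the guides. SULF2 itself had 10.1 and 9.24 TPM with sgRNA3 and 8.98 and 12.8 TPM with sgRNA1, which overlap, and whether the size of either difference follows the level of SULF2 was not tested.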

How the results depend on the processing

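The count of members called with sgRNA1 against LACZ was 7 in all alternatives that kept every library and 2 to 7 when single libraries were left out. With sgRNA3 against LACZ it was 7, except for 6 with no filter on low values, 5 with no variance trend, 5 under the replicate block and 6 with only the 2 groups compared, and 1 to 6 when single libraries were left out. With sgRNA3 against sgRNA1 it was 2 in the main analysis and under the pseudocounts, the stricter filter and both scalings, and 0 with no filter, no variance trend, the replicate block or only the 2 groups compared. It was also 0 to 0 when single libraries were left out.

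The labels do not say whether replicate numbers pair the libraries, and same-numbered replicates did not deviate together. With replicate number as a block, the calls of all genes went to 252 higher and 309 lower with sgRNA3 (637 and 872 without it), 91 and 286 with sgRNA1 (281 and 716), and 0 between the guides (65 and 31).

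Over all genes, median-of-ratios scaling gave 1020 higher and 806 lower calls with sgRNA3 and 610 and 578 with sgRNA1, where quantile normalization gave 442 and 560. Without filter the calls were 345 and 440 with sgRNA3, 146 and 396 with sgRNA1, and 0 between the guides. With no variance trend they were 180 and 377, 62 and 233, and 7 and 5. With only the 2 groups compared they were 430 and 562, 121 and 360, and 7 and 5. With single libraries left out they ranged from 93 to 422 higher and 140 to 545 lower with sgRNA3, 33 to 120 and 130 to 344 with sgRNA1, and 0 to 23 and 0 to 6 between the guides.

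Signs turned only for values that were never called. With sgRNA3 against LACZ, STAT3 turned to 0.0192 with median-of-ratios scaling, and IL6ST ranged from -0.0736 to 0.409 when single libraries were left out. With sgRNA1, LIFR turned to 0.0202 with quantile normalization and ranged from -0.266 to 0.0237 with single libraries left out, and IL6ST from -0.325 to 0.0668. Between the guides, STAT3 turned to -0.00146 with quantile normalization, and with single libraries left out STAT3 ranged from -0.0181 to 0.134, LIFR from -0.218 to 0.0712 and SULF2 from -0.375 to 0.0933. Of 495 log2 changes over the alternatives, 409 kept direction and call, 76 lost the call and 10 turned sign; the cause was not tested. Depth is unknown, so its limits could not be set.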

Other observations

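Beyond the lists, the annotation columns of the deposited table mark genes for cytokine activity and for Jak-STAT signaling; these terms were chosen after values were seen. Without the 6 members that carry it, cytokine activity covered 92 tested genes, of which 6 were higher and 13 lower with sgRNA3 and 4 higher and 11 lower with sgRNA1, with median log2 changes of -0.06 and -0.06. Without the 8 members that carry it, the Jak-STAT term covered 95 tested genes, of which 3 were higher and 8 lower with sgRNA3 and 1 higher and 9 lower with sgRNA1, with medians of -0.08 and -0.11. The medians over all tested genes were -0.05 with sgRNA3 and -0.07 with sgRNA1. Of all tested genes, 3.84% were called higher and 5.25% lower with sgRNA3, and 1.69% higher and 4.31% lower with sgRNA1.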
